A study of Mus musculus with 5 samples.

Results

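The 8 genes described here were high in the thyrotrope line TαT1 and at or near 0 in every other line measured. They are Thy1, Tmem59l, Chodl, Calb2, Accn3, AW551984, AI662270 and A730017C20Rik, 8 of the 21437 genes with a usable name in the table. The members were selected on their level in TαT1, which stood far above that in αT1–1, the line closest to it, so the contrast with αT1–1 is given as a description. Their level in TαT1 ran from 14.02 RPKM for Accn3 to 191.4 RPKM for Thy1, with a median of 32.95 RPKM, where RPKM is reads normalised to the length of the gene and to the reads of the library. In αT1–1 no member passed 0.863 RPKM, and the median was 0.187 RPKM. In αT3–1, LβT2 and NIH3T3 the medians were 0.0418, 0.0526 and 0 RPKM.

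RNA was sequenced from 5 mouse cell lines to relate expression in a pituitary lineage to the state of its chromatin. NIH3T3 is a fibroblast line from Swiss mouse embryos and served as the control outside the pituitary. The other 4 lines came from tumours of CB6F1/J mice that carried a transgene for the SV40 T antigen, so this viral oncogene is common to all pituitary lines. By their labels αT1–1 is an immature and αT3–1 an intermediate gonadotrope line, both of embryonic stage, LβT2 is a mature gonadotrope line and TαT1 a thyrotrope line of mature stage. The study's own text treats αT1–1 as a progenitor that precedes gonadotropes or thyrotropes and αT3–1 as immature. All were grown untreated in medium with serum and harvested before they were confluent. Each is an immortalized line, and a line stands for its cell type only as far as the tumour it came from does. There is 1 column per line, so no difference below has a replicate check, and the intervals cover counting error only. The read totals behind the columns were 14.25 to 20.69 M (M, 1000000), and 9602 to 11438 genes reached 1 RPKM. Of 10 thyrotrope markers, 9 reached 1 RPKM in TαT1, among them Tshb, the hormone-specific subunit of thyrotropin, at 58.5 RPKM. Thrb, a thyroid hormone receptor, was the exception at 0.753 RPKM. Of the same list 7 reached 1 RPKM in αT1–1, 5 in LβT2, 4 in αT3–1 and 1 in NIH3T3. Beside these marker counts, 10821 of all 21437 genes reached 1 RPKM in TαT1. Of 7 gonadotrope markers 2 reached 1 RPKM in TαT1, Foxl2 (17.6 RPKM) and Egr1 (6.67 RPKM), as in αT1–1. Gnrhr, the receptor for GnRH, was listed at 0 in TαT1 and at 206.2 RPKM in αT3–1, and Fshb was listed at 0 in all 5 lines. The lactotrope hormone gene Prl stood at 108.2 RPKM in TαT1 and at no more than 0.0601 RPKM in any other line. It is 1 of 5 lactotrope and somatotrope markers, of which 3 reached 1 RPKM in TαT1. The count was 2 for αT3–1 and for αT1–1, 1 for LβT2 and 0 for NIH3T3. Gh was also highest in TαT1 (1.57 RPKM). Drd2 was highest in LβT2 (68.81 RPKM, against 29.05 RPKM in TαT1). Neurod4 was highest in αT3–1 (24.75 RPKM, against 0.238 RPKM in TαT1), and Ghrhr was listed at 0 in TαT1.

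Thyrotropes are the cells of the anterior pituitary that make thyrotropin, a dimer of the α subunit Cga, which gonadotropes also make, and the β subunit Tshb. Several of the 8 genes are best known from neurons rather than from the pituitary. Thy1 encodes a small immunoglobulin-fold protein held in the outer membrane by a glycolipid anchor and marks neurons, mouse T cells and many fibroblasts. Calb2 encodes calretinin, an EF-hand protein that binds calcium in the cytoplasm of interneurons. Accn3 is an older symbol of Asic3, a sodium channel of sensory neurons that opens in acid. Chodl encodes chondrolectin, a membrane protein with a C-type lectin domain, and Tmem59l a membrane protein of the brain related to Tmem59. AI662270 is annotated as a long non-coding RNA, and A730017C20Rik is now named Minar2. No function of AW551984 is annotated in the sources used here.

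The sequence around the start is shown for 3 members, each with 1 RefSeq promoter entry. It is shown because the members are spread over the genome and were nonetheless high in the same line. Each entry covers 250 bases before and 50 bases after the annotated start on GRCm38.p6, written 5′ to 3′ on the strand of the gene, and the capitals mark matches to the motifs searched. The windows are chr8:70487299-70487598 on the minus strand for Tmem59l, chr16:78930698-78930997 on the plus strand for Chodl and chr5:24413201-24413500 on the plus strand for Accn3.
Tmem59l: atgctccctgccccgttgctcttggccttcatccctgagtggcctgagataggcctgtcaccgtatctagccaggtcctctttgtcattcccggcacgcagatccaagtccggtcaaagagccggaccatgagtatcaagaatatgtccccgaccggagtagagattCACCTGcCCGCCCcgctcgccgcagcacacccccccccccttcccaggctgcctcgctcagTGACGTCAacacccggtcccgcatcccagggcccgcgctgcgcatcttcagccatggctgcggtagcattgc
Chodl: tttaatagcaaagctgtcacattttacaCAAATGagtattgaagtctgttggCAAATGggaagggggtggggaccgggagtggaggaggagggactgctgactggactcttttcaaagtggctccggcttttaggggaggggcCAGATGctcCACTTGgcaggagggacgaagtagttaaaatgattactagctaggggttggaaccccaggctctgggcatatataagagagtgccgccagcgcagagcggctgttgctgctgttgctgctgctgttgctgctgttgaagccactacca
Accn3: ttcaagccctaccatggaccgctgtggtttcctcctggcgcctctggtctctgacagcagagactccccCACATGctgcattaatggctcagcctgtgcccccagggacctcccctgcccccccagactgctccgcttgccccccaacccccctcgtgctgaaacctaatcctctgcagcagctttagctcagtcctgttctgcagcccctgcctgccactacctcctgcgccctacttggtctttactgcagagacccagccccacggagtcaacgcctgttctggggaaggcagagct

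Both strands of each window were searched for 8 motifs, and no matches overlapped. The Tmem59l window held the cyclic AMP response element, searched as TGACGTCA, from −22 relative to the start, and 1.79% of the 32851 RefSeq promoters of this length hold it. It also held the SP1 box, searched as GGGCGG, at −76 on the opposite strand (35.7% of promoters). The E-box, searched as CANNTG and held by 72.3% of promoters, occurred 1 time in the Tmem59l window at −83, 4 times in the Chodl window and 1 time in the Accn3 window. AW551984 has 3 annotated starts, whose windows overlap in part and held 3 E-boxes each, and 1 of them also held an SP1 box on the opposite strand. The TATA box, searched only as TATAAA, had no match in these 6 windows of 4 genes (13.6% of promoters hold these letters). The Chodl window does hold the similar letters tatataag, which this search did not cover. The pituitary PIT1 core, searched as ATGNATA (8.84%), had no match in the 6 windows. There was also no match to the GATA motif, searched as AGATAA (11.2%). The nuclear receptor half-site, searched as AGGTCA (16.3%), was not matched either. Nor was a part of the RE1 element, searched as TTCAGCACC (0.371%). The GC content was 63.0% for Tmem59l, 62.0% for Accn3 and 52.7% for Chodl, against a median of 52.7% over all promoters. The ratio of observed to expected CpG was 0.712 for Tmem59l, 0.313 for Chodl and 0.267 for Accn3 (median over all promoters, 0.384). Thus the 3 printed windows differed in base composition and, apart from the common E-box, shared no motif of those searched. No promoter of the other 4 genes was read.

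Among the cell surface proteins, Thy1 had the highest level of the 8 genes in TαT1. It stood at 191.4 RPKM in TαT1 (6259 reads, 95% interval 186.7 to 196.2), 0.171 RPKM in αT1–1 (6 reads), 0.124 RPKM in LβT2 (4 reads), 0.0405 RPKM in NIH3T3 (1 read) and 0 RPKM in αT3–1 (0 reads). TαT1 alone was high, and Thy1 was the 342nd most abundant gene there by RPKM. The ratio of TαT1 to αT1–1 was 1120 (95% interval 514.4 to 3054), to LβT2 1549 (604.8 to 5688) and to NIH3T3 4731 (848.8 to 186900), and Thy1 was at least 2290-fold higher in TαT1 than in αT3–1 with the 0 reads there set to a floor of 3 reads for that library. The gene spans 44043384 to 44048579 on the plus strand of chromosome 9 (GRCm38). The smallest length that gives whole reads for its values, 1735 bases, equals the longest annotated transcript.

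Since Thy1 also marks T cells, neurons and fibroblasts, the markers of those cells were read beside it. Of 9 T cell markers only the kinase Lck reached 1 RPKM in TαT1 (2.56 RPKM), Cd3e and Ptprc were listed at 0, and the summed level of the list was 2.97 RPKM in TαT1 against 0.370 to 5.32 RPKM over all lines. None of 8 fibroblast markers reached 1 RPKM in TαT1, where they summed to 0.807 RPKM, against 1521 RPKM in NIH3T3, the fibroblast line with a single Thy1 read. Of 10 neuron markers 8 reached 1 RPKM in TαT1, among them Tubb3 at 293.6 RPKM and Snap25 at 61.8 RPKM, while Stmn2 was listed at 0. The count was 9 in αT3–1, 7 in αT1–1, 5 in LβT2 and 1 in NIH3T3, so it was not particular to TαT1. The neuron list summed to 516.8 RPKM in TαT1, 1299 RPKM in αT1–1, 442 RPKM in αT3–1, 362.2 RPKM in LβT2 and 64.2 RPKM in NIH3T3. Nefl and Nefm, neurofilament genes, gave most of the αT1–1 sum (728.3 and 460.0 RPKM, against 49.1 and 38.0 RPKM in TαT1), whereas Tubb3, Snap25, Syt1 (13.56 RPKM) and Slc17a6 (27.3 RPKM) had their highest level in TαT1. Nefh was highest in LβT2 (88.0 RPKM, against 32.0 RPKM in TαT1). Gad1 and Gad2 were highest in αT3–1 (3.23 and 11.9 RPKM, against 1.54 and 0.0189 RPKM in TαT1). The part of the neuron genes in the levels of the 8 members was not tested.

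Chodl was one of the 2 lowest members in TαT1. It stood at 14.03 RPKM in TαT1 (669 reads, interval 12.99 to 15.13), 0.0586 RPKM in αT1–1 (3 reads), 0.0212 RPKM in LβT2 (1 read), 0.0191 RPKM in αT3–1 (1 read) and 0 RPKM in NIH3T3. Its ratio of TαT1 to αT1–1 was 239.5 (81.6 to 1164), to αT3–1 734.3 (131.3 to 29050) and to LβT2 662.4 (118.5 to 26200), and it was at least 168.6-fold higher than in NIH3T3. The wide intervals come from the 1 to 3 reads in the other lines. Chodl spans 78930948 to 78951733 on the plus strand of chromosome 16, and 1.94% of the words of 36 bases (the read length) in its transcripts also occur in other genes.

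The membrane protein gene Tmem59l, second in level to Thy1, stood at 68.2 RPKM in TαT1 (1912 reads, 65.2 to 71.35). In αT3–1 it had 0.195 RPKM (6 reads) and in αT1–1 0.0332 RPKM (1 read), and in LβT2 and NIH3T3 it had 0 reads. The ratio of TαT1 to αT1–1 was 2053 (368.1 to 81150) and to αT3–1 349.8 (160.4 to 954.3), with at least 631-fold against LβT2 and at least 481.7-fold against NIH3T3. It spans 70483867 to 70487358 on the minus strand of chromosome 8, and no word of its transcripts is shared with another gene. Its relative Tmem59, at 162.9 to 212.6 RPKM over the 5 lines and 212.6 RPKM in TαT1, was expressed in all of them. So Tmem59l, at 68.2 RPKM, was the lower of the pair even in the line where it was high.

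The channel gene Accn3 had the smallest difference between TαT1 and the next highest line of the 8 genes. It stood at 14.02 RPKM in TαT1 (513 reads, 12.83 to 15.28), 0.423 RPKM in αT3–1 (17 reads, 0.2465 to 0.6775), 0.204 RPKM in αT1–1 (8 reads), 0.145 RPKM in NIH3T3 (4 reads) and 0.110 RPKM in LβT2 (4 reads). Accn3 was the only member with reads in all 5 lines. The ratio of TαT1 to αT3–1 was 33.12 (20.48 to 57.31), to αT1–1 68.87 (34.69 to 160.4), to NIH3T3 96.94 (37.63 to 357.1) and to LβT2 127.0 (49.29 to 467.8). Accn3 lies on the plus strand of chromosome 5 from 24413392 to 24417835 in GENCODE. In RefSeq its span and that of Cdk5, a kinase gene at 18.15 to 50.38 RPKM in the 5 lines, overlap by 4390 bases, and the library kit does not mark strand, so reads of the pair in shared bases cannot be told apart. Cdk5 stood at 40.3 RPKM in TαT1 and 35.6 RPKM in αT1–1, while Accn3 stood at 14.02 and 0.204 RPKM.

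The calcium-binding gene Calb2 stood at 28.8 RPKM in TαT1 (777 reads, 26.82 to 30.91), 0.863 RPKM in αT1–1 (25 reads, 0.5586 to 1.274), 0.0375 RPKM in LβT2 (1 read), 0.0338 RPKM in αT3–1 (1 read) and 0 RPKM in NIH3T3. Of the 8 members it had the highest level in αT1–1 and the lowest ratio of TαT1 to αT1–1, 33.38 (22.44 to 51.9). The ratio was 852.9 (152.6 to 33730) against αT3–1 and 769.3 (137.7 to 30430) against LβT2, and Calb2 was at least 195.8-fold higher than in NIH3T3. It spans 110137502 to 110168210 on the minus strand of chromosome 8, 39.7 Mb from Tmem59l, with no words shared with other genes.

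Of the 3 members with little or no known function, AW551984 stood at 48.5 RPKM in TαT1 (3926 reads, 47.02 to 50.06). In αT1–1 it had 0.725 RPKM (63 reads, 0.5571 to 0.9276), in αT3–1 0.0788 RPKM (7 reads), in LβT2 0.0499 RPKM (4 reads) and in NIH3T3 0 RPKM. Its ratio of TαT1 to αT1–1 was 66.93 (52.19 to 87.27), to αT3–1 615.6 (298.5 to 1532) and to LβT2 971.8 (379.2 to 3568), with at least 989.2-fold against NIH3T3. AW551984 is annotated as protein-coding from 39587396 to 39604403 on the minus strand of chromosome 9, 4.46 Mb from Thy1. Its transcripts share 9 words with Vwa5a and 0.214% of their words in all.

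AI662270 stood at 29.1 RPKM in TαT1 (773 reads, 27.11 to 31.26), 0.526 RPKM in αT1–1 (15 reads), 0.266 RPKM in LβT2 (7 reads), 0.0499 RPKM in NIH3T3 (1 read) and 0 RPKM in αT3–1. The ratio of TαT1 to αT1–1 was 55.34 (33.34 to 99.37), to LβT2 109.3 (52.81 to 272.9) and to NIH3T3 584.3 (104.6 to 23110), and it was at least 282.8-fold higher than in αT3–1. On the plus strand of chromosome 11, from 83223576 to 83226604, it overlaps the pseudogene Gm11427 by 491 exon bases on the same strand. Gm11427 has no row in the table and holds all of the 14.6% of AI662270 words found in another gene, so part of the reads given to AI662270 may be its own or those of Gm11427, and its level is uncertain to that extent.

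A730017C20Rik, now Minar2 and named for a membrane protein associated with NOTCH2, stood at 36.8 RPKM in TαT1 (1344 reads, 34.84 to 38.8). LβT2 had 0.0553 RPKM (2 reads), αT3–1 0.0499 RPKM (2 reads), αT1–1 0.0255 RPKM (1 read) and NIH3T3 0 RPKM. Its ratio of TαT1 to αT1–1 was 1443 (258.6 to 57050), to αT3–1 737.6 (203.8 to 6097) and to LβT2 665.4 (183.8 to 5500), with at least 338.6-fold against NIH3T3. It lies on the plus strand of chromosome 18 from 59062248 to 59076962. The smallest length that gives whole reads for its values, 1939 bases, is shorter than the longest annotated transcript of 3680 bases. The same holds for AI662270 (1408 of 2577 bases) and Accn3 (1942 of 2211 bases). These 3 levels may thus rest on another gene model than the one used here for coordinates. For AI662270 and A730017C20Rik a multiple of the length would fit as well, with more reads. For Accn3, with summed exons of 2423 bases, no multiple stays within the limit set on length.

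**Figure D1:**
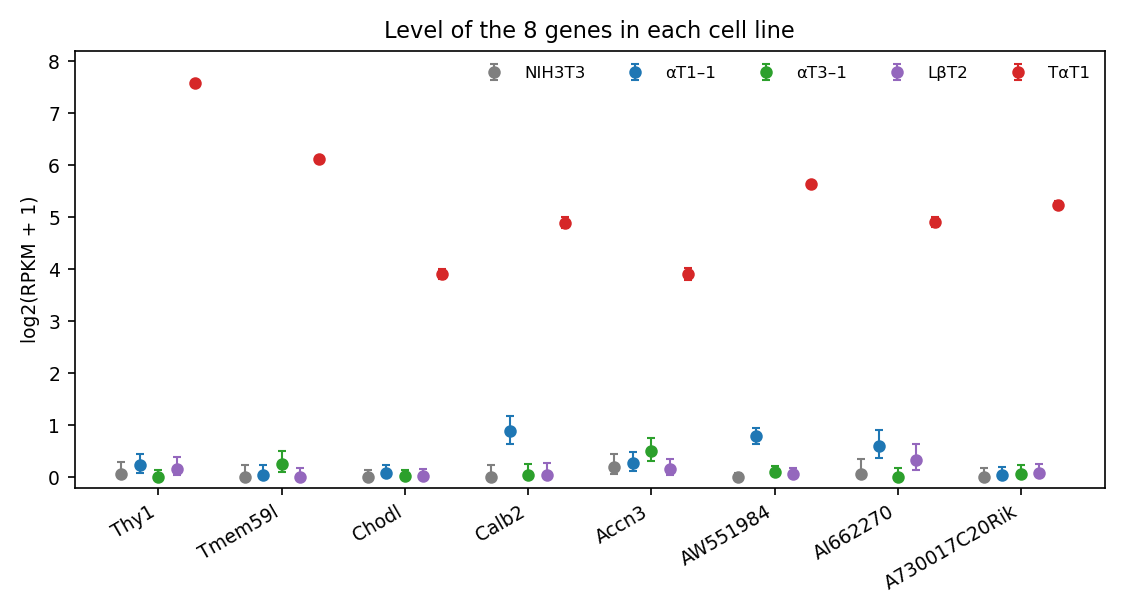
Levels of the 8 genes, as log2(RPKM + 1) on the vertical axis, in each of the 5 lines (1 point per line, bars for the 95% counting interval). The TαT1 points run from 14.02 RPKM (Accn3) to 191.4 RPKM (Thy1), and every other point lies at 0.863 RPKM or below.

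Over the 8 genes together 16173 reads came from TαT1, 122 from αT1–1, 34 from αT3–1, 23 from LβT2 and 6 from NIH3T3. The number of members without a read was 5 in NIH3T3, 2 in αT3–1, 1 in LβT2 and 0 in both TαT1 and αT1–1. αT1–1 was thus the only other line with reads of every member, and AW551984 and Calb2 gave 63 and 25 of its 122 reads. That rests on 1 read each for Tmem59l and A730017C20Rik in αT1–1, so it does not set αT1–1 apart from LβT2, which lacked reads of Tmem59l only.

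In the order of levels, TαT1 came first for all 8 members, as the choice of members largely fixed. Below it, 23 neighbouring pairs of lines could be compared, and in 2 of them the interval of the ratio lay above 1. Calb2 was higher in αT1–1 than in LβT2, the next line (ratio 23.0, interval 3.77 to 946), and AW551984 was higher in αT1–1 than in αT3–1 (9.20, 4.21 to 23.8). For the other pairs no difference was detectable at this depth. Accn3, for example, was 2.08 times as high in αT3–1 as in αT1–1, with an interval of 0.85 to 5.57, AI662270 was 1.98 times as high in αT1–1 as in LβT2 (0.758 to 5.73), and Tmem59l was 5.87 times as high in αT3–1 as in αT1–1 (0.712 to 270).

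**Figure D2:**
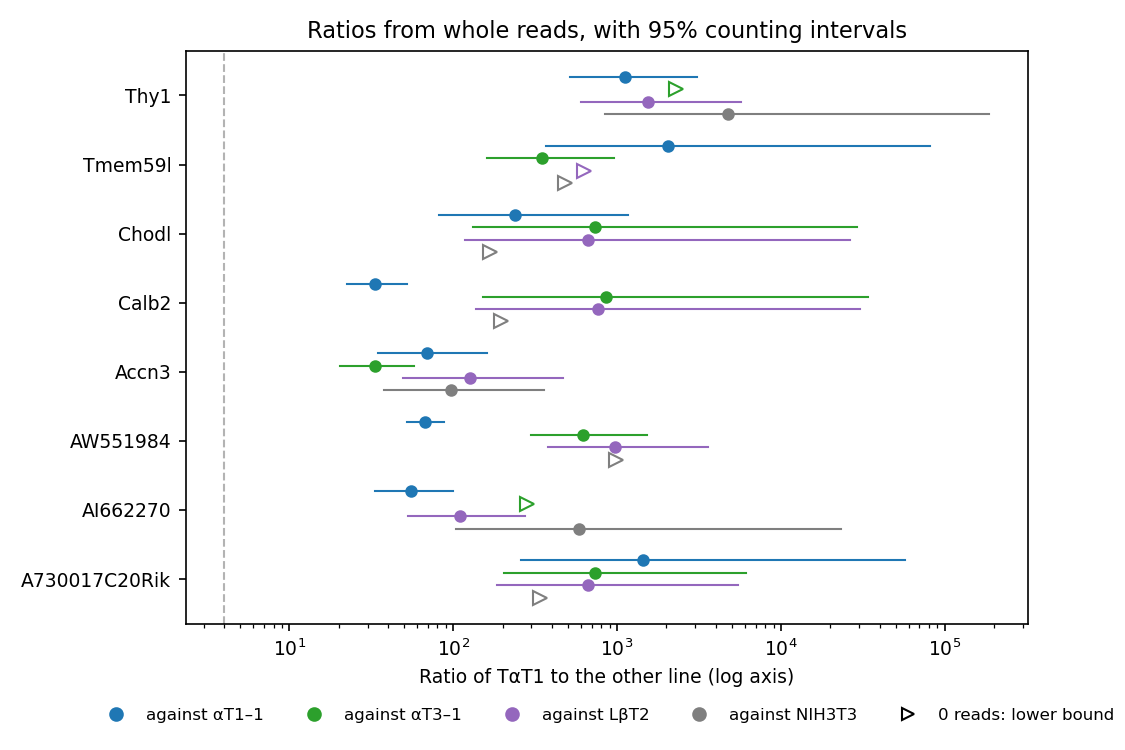
Ratio of the TαT1 level to that of each other line on a log axis, 1 row per gene, with 95% counting intervals. Open arrowheads are lower bounds where the other line had 0 reads, and the dashed line marks a ratio of 4. The smallest ratios are 33.12 (Accn3 against αT3–1) and 33.38 (Calb2 against αT1–1).

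To set these values against all genes, differences of log2(RPKM + 1) were called 4-fold at a size of 2, over the genes that reached 1 RPKM in either line, a scale that understates the change of low genes. Against αT1–1, the contrast used to pick the members, 8 of 8 were at least 4-fold higher in TαT1, where 1.84% of the 11464 genes compared were higher and 1.77% lower. Against αT3–1, 8 of 8 were higher, with 3.37% of 12123 genes higher and 6.93% lower. Against LβT2, 8 of 8 were higher, with 5.5% of 12097 genes higher and 6.55% lower, and against NIH3T3, 8 of 8, with 12.9% of 11802 genes higher and 7.89% lower. The median difference of the members was 4.57 against αT1–1, 5.04 against αT3–1, 5.00 against LβT2 and 5.07 against NIH3T3, beside medians over all genes of 0.05, 0.06, −0.08 and 0.28. These 4 comparisons share the TαT1 column, and that column served to pick the members, so nothing is read from their counts.

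The choice of members had no fixed limit. In all, 37 genes differed from αT1–1 by at least as much as Accn3, the member with the smallest difference (3.64). Of the 29 that are no members, 21 reached 1 RPKM in αT3–1, LβT2 or NIH3T3, such as Nnat, an imprinted gene, at 536.2 RPKM in TαT1 and 9385 RPKM in LβT2. The next genes below Accn3 were Ntrk2, a neurotrophin receptor (3.58), Hs3st1, a heparan sulfate enzyme (3.54), and Perp, a junction protein (3.42). Nnat and Perp were named after their values were seen.

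A stricter reading of the label, at least 10 RPKM in TαT1 and under 1 RPKM in each of the other 4 lines, held for 19 genes, 0.311% of the 6104 genes at 10 RPKM or more in TαT1, and for 8 of 8 members. The other 11 included Prl (108.2 RPKM), Tshb (58.5 RPKM), the lymphatic growth factor Vegfc (31.4 RPKM), Fgf13 (21.3 RPKM), Ntrk2 (21.1 RPKM), the connexin gene Gja5 (18.9 RPKM) and the transcription factor gene Lef1 (12.9 RPKM). The same rule read for the other lines gave 188 genes in NIH3T3, 93 in LβT2, 31 in αT3–1 and 7 in αT1–1. By the difference between TαT1 and the next highest line, Thy1 was first of all genes (7.36), ahead of Prl (6.69), and Tmem59l was number 3 (5.86). A730017C20Rik was number 6 (5.16), AW551984 7 (4.84), AI662270 10 (4.30), Calb2 13 (4.0), Chodl 17 (3.83) and Accn3 22 (3.40) in this ranking. Since the TαT1 column served to pick the members, these ranks and the 8 of 8 restricted members were largely fixed. Nothing is read from them. Tshb (5.43), Sfrp2, a secreted Wnt antagonist (5.16), Vegfc (4.51), Pou1f1 (4.40), Fgf13 (4.29) and Gja5 (4.20) were the others among the first named genes. Pou1f1, which encodes PIT1, the factor of thyrotropes, lactotropes and somatotropes, stood at 88.0 RPKM in TαT1 and 3.21 RPKM in αT1–1, and so was higher than 7 of the 8 members in TαT1.

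**Figure D3:**
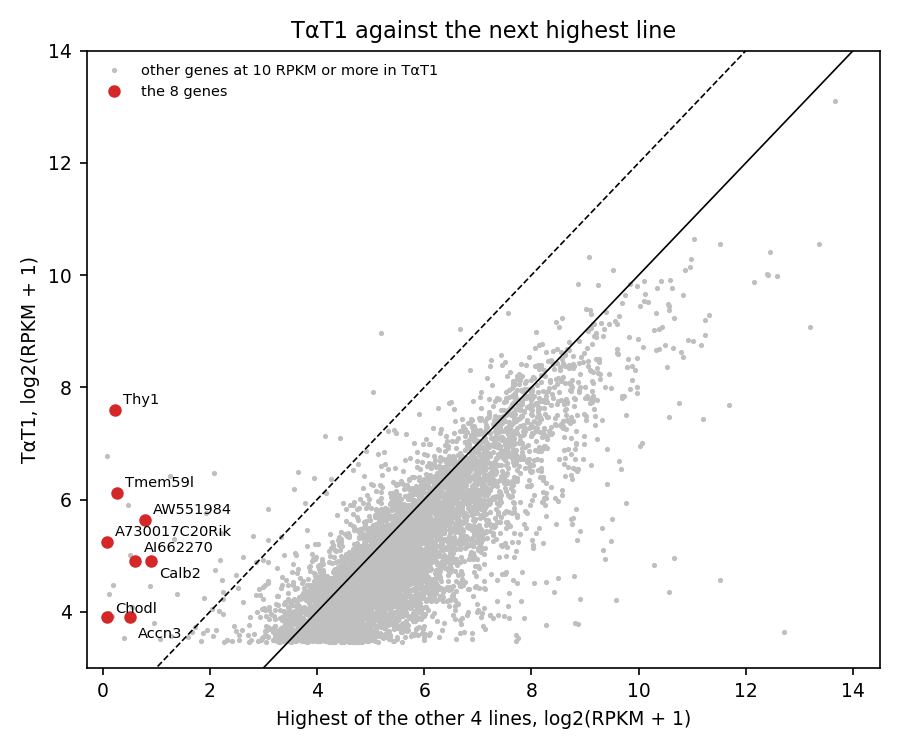
Level in TαT1 against the highest level in the other 4 lines, both as log2(RPKM + 1), for the 6104 genes at 10 RPKM or more in TαT1. The solid line is equality and the dashed line a difference of 2. The 8 genes (red) lie at the far left, at 0.863 RPKM or less on the horizontal axis, with Thy1 the highest of them.

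The genes whose 5 levels lay nearest to those of each member, by Euclidean distance of log2(RPKM + 1) over the 5 lines, came mostly from the same restricted set. Thy1 was nearest to Prl (0.854), Tshb (1.72) and Sfrp2 (1.77), and Tmem59l to Tshb (0.545), Prl (0.713) and Sfrp2 (1.20). For AW551984 they were Tshb (0.441), Vegfc (0.681) and Ntrk2 (1.18), and for A730017C20Rik Vegfc (0.524), Fgf13 (0.783) and Tshb (0.798). Calb2 and AI662270 were both nearest to Vegfc, at 0.414 and 0.308, followed by Ntrk2 at 0.437 and 0.627 and Fgf13 at 0.828 and 0.699. Chodl was nearest to Rtn4rl2, a Nogo receptor relative (0.0796), the collagen gene Col15a1 (0.163) and Gja5 (0.407), and Accn3 to Col15a1 (0.512), Rtn4rl2 (0.545) and Hs3st1 (0.613). With 5 points that share 1 high value, a small distance says mainly that the levels in TαT1 were alike.

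Relatives of the members were then read in the same lines, through chosen lists that do not hold every gene of a family. Of 14 other EF-hand calcium-binding genes at 1 RPKM or more in TαT1 or αT1–1, 1 was 4-fold or more above αT1–1 in TαT1 and 0 were below it, with a median difference of 1.03, beside 1.84% of all genes above, 1.77% below and a median of 0.05. Against αT3–1 3 of 13 were higher and 2 lower (median 1.40), against NIH3T3 7 of 13 and 0 (2.24), and against LβT2 the median turned to −0.88, with 3 of 15 higher and 4 lower. Over all genes 3.37% were higher and 6.93% lower against αT3–1, 5.5% and 6.55% against LβT2, and 12.9% and 7.89% against NIH3T3. The one higher than in αT1–1 was Hpcal4, a neuronal calcium sensor, at 19.4 RPKM in TαT1 and 3.76 RPKM in αT1–1. Calb1, the calbindin closest to Calb2, stood at 59.0 RPKM in TαT1 and 23.4, 6.68, 5.27 and 0 RPKM in αT1–1, αT3–1, LβT2 and NIH3T3. Unlike Calb2, Calb1 was thus present in all 4 pituitary lines, and in TαT1 it was the higher of the pair. Pvalb, parvalbumin, ran the other way, with 1.31 RPKM in TαT1 and 108.3 and 104.0 RPKM in αT3–1 and LβT2. The calcium sensor Ncald stood at 43.1 RPKM in TαT1 and 24.9 RPKM in αT1–1. Vsnl1, also on the list, stood at 1.89 RPKM in TαT1 and 0 RPKM in every other line. Outside the list, the calmodulin-like gene Calm4 stood at 10.6 RPKM in TαT1 and at most 0.324 RPKM elsewhere. Calm5 stood at 5.03 RPKM in TαT1 and 0 RPKM elsewhere.

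Among acid-sensing and epithelial sodium channels, 2 besides Accn3 reached 1 RPKM in TαT1 or αT1–1. Of these 0 were 4-fold or more above αT1–1 and 1 was below it, beside 1.84% of all genes above and 1.77% below. Accn1 was lower in TαT1 (1.58 RPKM) than in αT1–1 (29.0 RPKM) and αT3–1 (34.6 RPKM), and was at 0.0283 RPKM in LβT2. Accn2, the channel subunit found most widely in neurons, stood at 8.26 RPKM in TαT1 and 6.01 to 26.6 RPKM elsewhere. Accn4 reached no more than 0.36 RPKM in any line. Accn3 was therefore the highest of the Accn genes in TαT1, whereas Accn1 was the highest in αT1–1 and αT3–1.

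For Thy1, 7 other GPI-anchored immunoglobulin genes were compared, of which 1 was at least 4-fold higher in TαT1 than in αT1–1 and 0 lower, with a median of −0.25. Cntn3, a contactin, stood at 8.52 RPKM in TαT1 and 0.0381 RPKM in αT1–1. Mdga1, a gene of this kind outside the list, stood at 39.7 RPKM in TαT1 and 5.95 RPKM in αT1–1 (difference 2.55). Against αT3–1 1 of 6 was higher and 1 lower, against LβT2 2 of 8 and 1, and against NIH3T3 3 of 5 and 0. The shares of all genes for the counts here were 1.84% higher and 1.77% lower against αT1–1, and 3.37% and 6.93% against αT3–1. They were 5.5% and 6.55% against LβT2, and 12.9% and 7.89% against NIH3T3. Of 7 genes of the Ly6 family, most of which carry the same kind of anchor, 0 were higher than in αT1–1 and 1, Ly6e, was lower (median −0.90). The counts were larger against the other lines, with 2 of 7 lower than in αT3–1, 4 of 8 lower than in LβT2 and 7 of 9 lower than in NIH3T3 (medians −0.76, −1.95 and −5.02), and 1, Ly6h, was higher than in NIH3T3. Of 5 genes for integrins and a syndecan that bind Thy1, 0 were higher than in αT1–1 and 1 was lower, with a median of −1.70. Against αT3–1 1 of 5 was higher and 2 lower, against LβT2 0 of 5 and 1, and against NIH3T3 0 of 7 and 4. The one lower than in αT1–1 was Itgav, at 0.376 RPKM in TαT1 against 7.38 RPKM in αT1–1, and Itgb3, its partner in a receptor for Thy1, stood at 1.17 and 6.26 RPKM. Itgb1 stood at 108.9 RPKM in TαT1 and 187.4 RPKM in αT1–1.

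The other lists held few such genes against αT1–1, where 1.84% of all genes were higher and 1.77% lower. No C-type lectin of the chondrolectin and thrombomodulin groups besides Chodl reached 1 RPKM in TαT1 or αT1–1, and Layn, the nearest relative listed, stood at 58.4 RPKM in NIH3T3 and 0 RPKM in TαT1, the reverse of Chodl. Of 15 genes of the Tmem59 family and of amyloid precursor processing other than Tmem59l, 0 were at least 4-fold higher or lower in TαT1 than in αT1–1 (median −0.15), and App itself stood at 336.0 and 415.2 RPKM. Of 3 von Willebrand factor A domain genes set beside AW551984 for its words shared with Vwa5a, 0 were higher and 0 lower, and Vwa5a stood at 2.12 RPKM in TαT1, 0.986 RPKM in αT1–1 and 14.6 RPKM in NIH3T3. Of 10 Notch pathway genes set beside A730017C20Rik, 0 were higher and 1, the target gene Heyl, was lower. AF529169, an older symbol of Minar1, stood at 0.0125 RPKM in TαT1, and Notch2 at 1.86 RPKM in TαT1 and 15.4 RPKM in NIH3T3.

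On the chromosomes, 3 measured genes on each side of every member, 48 in all, were taken in RefSeq order. Of these, 26 reached 1 RPKM in a line and 20 in TαT1 or αT1–1. Of the 20, 1 was at least 4-fold higher in TαT1 than in αT1–1 and 0 were lower, beside 1.84% higher and 1.77% lower over all genes, and 0 of the 48 were restricted to TαT1. The median difference between TαT1 and αT1–1 over the 26 was 0.30. Over all genes it was 0.05, but with the narrower filter of 1 RPKM or more in TαT1 or αT1–1. The one higher was Isoc1, near A730017C20Rik, at 79.6 RPKM in TαT1 and 18.5 RPKM in αT1–1, but at 212.4 RPKM in αT3–1. Adamts19, a metalloprotease gene 8507 bases from A730017C20Rik, stood at 1.34 RPKM in TαT1, 0.435 RPKM in αT3–1 and 0 RPKM in the other lines.

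Usp2, a ubiquitin protease gene 18442 bases from Thy1, stood at 13.4 RPKM in TαT1, 4.90 RPKM in αT1–1 and 16.7 RPKM in LβT2. Beside Tmem59l, Klhl26, 6866 bases away, stood at 24.5 RPKM in TαT1 and 26.2 RPKM in αT1–1. Tmprss15, 1272 bases from Chodl, stood at 0.0285 RPKM in TαT1 and 0 RPKM elsewhere. The 6 neighbours of AW551984 were olfactory receptor genes and were listed at 0 in every line. The nearest neighbour of AI662270, Slfn3, stood at 0.0292 RPKM in TαT1.

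**Figure D4:**
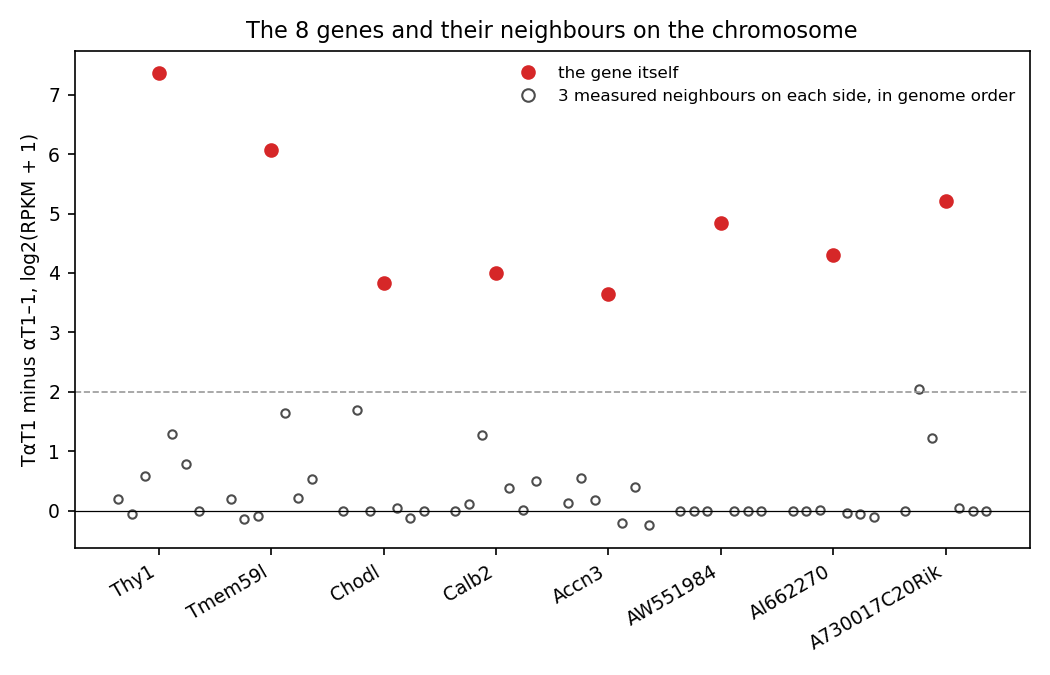
Difference between TαT1 and αT1–1 in log2(RPKM + 1) for each of the 8 genes (red) and its 3 measured neighbours on each side (open circles, in genome order from left to right). The dashed line marks a difference of 2. The 8 genes lie between 3.64 and 7.36, and 1 of the 48 neighbours, Isoc1, lies above 2.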

How the data were processed

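RNA of 5 mouse cell lines was sequenced as TruSeq v2 libraries in single-end reads of 36 bases, which the authors aligned with CASAVA. The authors deposited RPKM, reads per gene divided by its length and by the library's reads. Build, annotation, treatment of multiply aligned reads and how 2 libraries per line became 1 column: not given in the sources used here. No test could be made. The members and gene lists were chosen with earlier results of these data known.

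Of 21476 entries, 25 with a date for a name were left out, and of 9 repeated symbols the entry with the higher mean was kept. Values under 1 RPKM were whole multiples of a step in each column (largest deviation 0.00392 to 0.00585), read as the last printed digit, at 5 decimals, of the average coverage of a base. The smallest length from 150 to 15000 bases at which all 5 values were whole reads, at most 1.05 times the summed exons, gave reads for 15411 of 17489 genes above 0 (88.1%), all 8 members included. The steps were tested on simulated data. Levels have exact Poisson intervals, ratios have exact binomial ones, both at 95%.

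Coordinates are those of GENCODE M21 on GRCm38; gene order and promoters are from RefSeq on GRCm38.p6, whose table matched 21174 of the gene names (98.8%). Promoter entries were read for 4 of the 8 members. Shared words are those of 36 bases that annotated transcripts of other genes hold on either strand. Named are the members, the 3 genes nearest to each in pattern, the 10 largest gaps between TαT1 and the next line, list genes that differed or are relatives, neighbours and checks; others, markers included, were named after their values were seen. Alternatives were other pseudocounts, scalings and thresholds. The software was SciPy 1.17.1, NumPy 2.4.6, pandas 2.3.3 and matplotlib 3.10.9 under Python 3.11.15.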

Additional observations from a re-analysis of the deposited data

How the results depend on the processing

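With 1 column per line no library could be left out. No paired analysis was possible because each line has only 1 column. The members stayed at 8 of 8 at least 4-fold higher in every comparison under each alternative scaling and with a pseudocount of 0.1 RPKM. With a difference of 1 or 3 on the log2 scale in place of 2, 8 of 8 were also counted. The exception was a pseudocount of 5 RPKM in place of 1, which gave 6 of 8 against each line. Since the TαT1 column served to pick the members, these counts were largely fixed and nothing is read from them. With at least 5 RPKM in TαT1 and under 0.5 RPKM elsewhere, 5 members were restricted in place of 8 and 30 genes in place of 19. Calb2, AW551984 and AI662270 then fell outside through their αT1–1 levels. The restricted count takes no pseudocount. The difference to the next highest line over the 8 members ran from 3.40 to 7.36, from 4.75 to 9.47 with a pseudocount of 0.1 RPKM, from 1.81 to 5.25 with one of 5 RPKM and from 3.13 to 7.22 with scaling to Actb. That scaling moved the median of all genes by −0.25 against αT1–1, −0.54 against αT3–1, −0.55 against LβT2 and 0.70 against NIH3T3. Median-of-ratios scaling moved it by −0.30 and quantile normalization by −0.35 against NIH3T3, and the latter by 0.10 against LβT2. Every member stayed higher in TαT1 under each scaling, which the choice of members largely fixed as well. Depth limits the ratios, since at most 8 reads stand behind most levels outside TαT1.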
